A study of Mus musculus with 2 samples.

Results

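The enzymes described here attach a water-soluble group to a drug, toxin or metabolite, or hydrolyse its ester bonds. They are the glutathione transferases, the UDP-glycosyltransferases, the sulfotransferases, the carboxylesterases of families 1 and 2, and the NAT8 acetyltransferases. All genes whose symbol starts with Gsta, Gstm, Gstp, Gstt, Gstk, Gsto, Mgst, Ugt1, Ugt2, Ugt3, Sult, Ces1, Ces2 or Nat8 were taken, apart from symbols holding "-ps". This gave 90 of the 32285 genes listed in the files, in 14 families by symbol. At least 10 UMIs per 1000000 UMIs (CPM) in a section were found for 31 of the 90, and these are called measured.

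The data are 2 kidney sections from C57BL/6 mice, cut at 10 µm from fresh frozen tissue and profiled on 10x Genomics Visium slides 7 days after the ureter of that kidney was obstructed (unilateral ureteral obstruction, a model of tubular injury and fibrosis). In each spot of such a slide, barcoded probes capture the RNA of several cells, and each captured molecule is counted once as a UMI. One section came from a mouse given SH045, an inhibitor of the cation channel TRPC6, and the other from a mouse given Vehicle, and their values are given as with SH045 and with Vehicle. Both groups carry the obstruction, no genotype difference is labelled, and ages are not given in the labels.

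In a glutathione conjugation, a transferase joins glutathione to an electrophile. Gamma-glutamyltransferase and dipeptidases on the brush border then trim the conjugate to a cysteine conjugate, and NAT8 acetylates it to a mercapturic acid for the urine. UDP-glycosyltransferases attach a sugar and sulfotransferases a sulfate. The proximal tubule is the kidney's main site of these reactions, and its convoluted and straight portions are known to differ in the enzymes they carry.

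The genes lie mostly in clusters of neighbours. In the RefSeq annotation of GRCm38.p6, the patch release of the mm10 assembly that the submitters' processing notes name, all 90 symbols were found. 8 Nat8 genes lie within chr6:85706707-85915914, 8 Ces1 genes within chr8:93020214-93379777, 7 Gstm genes within chr3:107895854-108045179 and 10 Ugt2 genes within chr5:86889770-87490871. The 9 Ugt1a genes overlap within chr1:88055411-88220002 and share their last exons, so a UMI read from the 3′ end cannot be assigned to 1 of them with certainty. Reads of near-identical paralogs in the Gsta, Gstm, Gstp, Ugt2b, Ces1 and Nat8 families can also be split or dropped, and with counting settings not given in the sources used here, values of single paralogs are uncertain to that extent.

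RefSeq promoter windows of 300 bases (250 before to 50 after a start site) were at hand for 78 of the 90 genes and 26 of the 31 measured ones, with no entry for Ces1d, Ces1f, Gsta4, Gstt2 and Ugt3a2. Both strands were searched for 2 letter patterns: TGACNNNGC (the antioxidant response element core bound by NRF2) and CAAAGTCCA (an HNF4A motif). Among all 32851 windows, 12.4% held the first and 0.475% the second. Of the 31 windows of measured genes, 3 held the first, in Gsta3, Gstm5 and Mgst1, and 1 the second, in Nat8. No pattern overlapped another. Nat8 and Mgst1 each have another window, which held no pattern and is not shown. 4 windows are shown 5′ to 3′ on the gene's strand, in lower case with the pattern in capitals. Nat8 and Nat8f1 are shown because these genes of 1 cluster differed in their ratio between sections. Gsta3 is shown because it carries a pattern and was lower in the SH045 section, and Mgst1 because it carries one and lay at a like level in both.

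Nat8, chr6:85832230-85832529, minus strand, pattern on the reverse strand: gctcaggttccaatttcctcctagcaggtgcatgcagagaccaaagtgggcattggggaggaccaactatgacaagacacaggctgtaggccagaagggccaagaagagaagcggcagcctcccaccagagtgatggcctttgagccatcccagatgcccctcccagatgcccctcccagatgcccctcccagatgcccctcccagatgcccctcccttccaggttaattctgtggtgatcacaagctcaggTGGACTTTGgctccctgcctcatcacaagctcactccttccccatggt

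Nat8f1, chr6:85915583-85915882, minus strand, no pattern: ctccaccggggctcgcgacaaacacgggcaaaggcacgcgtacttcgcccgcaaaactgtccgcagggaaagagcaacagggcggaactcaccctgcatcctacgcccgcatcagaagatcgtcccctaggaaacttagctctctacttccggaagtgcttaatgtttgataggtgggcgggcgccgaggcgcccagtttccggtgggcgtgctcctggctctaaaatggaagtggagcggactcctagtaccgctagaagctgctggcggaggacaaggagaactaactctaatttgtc

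Gsta3, chr1:21240335-21240634, plus strand, pattern on the forward strand: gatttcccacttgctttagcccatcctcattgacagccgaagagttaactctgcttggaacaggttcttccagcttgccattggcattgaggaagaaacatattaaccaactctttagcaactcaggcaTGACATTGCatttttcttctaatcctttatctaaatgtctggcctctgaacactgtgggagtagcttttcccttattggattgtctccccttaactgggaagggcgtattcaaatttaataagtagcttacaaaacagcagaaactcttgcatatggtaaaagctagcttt

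Mgst1, chr6:138140277-138140576, plus strand, pattern on the reverse strand: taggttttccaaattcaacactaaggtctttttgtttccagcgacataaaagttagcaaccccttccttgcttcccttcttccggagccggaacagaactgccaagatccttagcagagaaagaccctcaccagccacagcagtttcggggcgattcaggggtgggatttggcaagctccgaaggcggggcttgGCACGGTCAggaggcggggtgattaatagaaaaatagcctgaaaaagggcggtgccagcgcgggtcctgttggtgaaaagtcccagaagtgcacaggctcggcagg

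A match is a description of letters in these windows. Between promoters of measured genes of the same family, identity was 43.3% to 54.1% over 23 pairs. Over 302 pairs from different families it was 39.2% to 50.5%, so the promoter windows of paralogs were little more alike than those of unrelated members.

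The sections differed in ways that touch every comparison between them. The SH045 section had 790 spots and 22388623 UMIs, the Vehicle section 676 spots and 4327613 UMIs, and the median UMIs per spot were 27733 and 4932.5. Mitochondrially encoded genes took 4.24% and 10.4% of UMIs. In the positions table of the section labelled Vehicle, 1210 spots carry the tissue flag and only 570 of them are among the 676 in its matrix, whereas all 790 agree in the SH045 section. 335 spot barcodes occur in both matrices, which come from 1 slide barcode list. The section labelled Vehicle also goes against its label in its injury genes: Havcr1 (KIM-1, a protein of injured proximal tubule) stood at 1.62 CPM there and 992 CPM in the SH045 section, and Lcn2 at 2.08 and 1233 CPM. Over all 10463 genes measured by the same filter, the median log2 ratio of SH045 over Vehicle was 0.63, and ratios are therefore also given relative to that median.

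The kidney origin was borne out by the segment markers. The 10 markers of the convoluted proximal tubule summed to 1513 CPM with SH045 and 10118 CPM with Vehicle, with 9 of 10 lower in the SH045 section by 1.5-fold or more. The 8 straight proximal markers summed to 795 and 605 CPM. Injury markers summed to 26872 and 1551 CPM, fibroblast markers to 2009 and 67.5 CPM, macrophage markers to 1611 and 198 CPM, and markers of the distal convoluted and connecting tubule to 565 and 22763 CPM. Among markers of tissues next to the kidney, those of adrenal summed to 1.74 and 0.92 CPM and those of fat to 0.71 and 0 CPM. The 6 liver markers summed to 343 and 42.7 CPM, and of the 4 measured ones 3 were higher with SH045 and 1 lower. Alb, the defining liver gene, went against that sum, at 0.31 and 3.47 CPM. In spots that mix cell types, fewer cells of a type and less RNA per cell cannot be told apart. With 1 section per group, no test between SH045 and Vehicle is possible and no p-value is given. Intervals are exact 95% intervals for counting error only.

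As a whole, the conjugation and carboxylesterase genes took a smaller share of the RNA in the SH045 section. Summed over all 90 genes, they reached 2609 CPM (2588 to 2631) with SH045 and 5280.3 CPM (5212 to 5349) with Vehicle, a 2.02-fold difference (1.99 to 2.06). Across 4 blocks of spots by position, the sum ran from 1817 to 3036 CPM with SH045 and from 4918 to 5782 CPM with Vehicle, so the blocks did not overlap. Of the 31 measured genes, 20 were at least 1.5-fold lower with SH045 and 3 at least 1.5-fold higher, where 11.8% of all genes were lower and 52.2% higher. The median log2 ratio of the 31 was -1.04. Relative to the median of all genes, 25 were lower and 2 higher, against 25.7% and 25.4% of all genes. Only the genes past the level filter enter these counts. The sum of convoluted proximal markers was lower in the same section, and its part in the lower enzyme level was not tested.

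**Figure D1:**
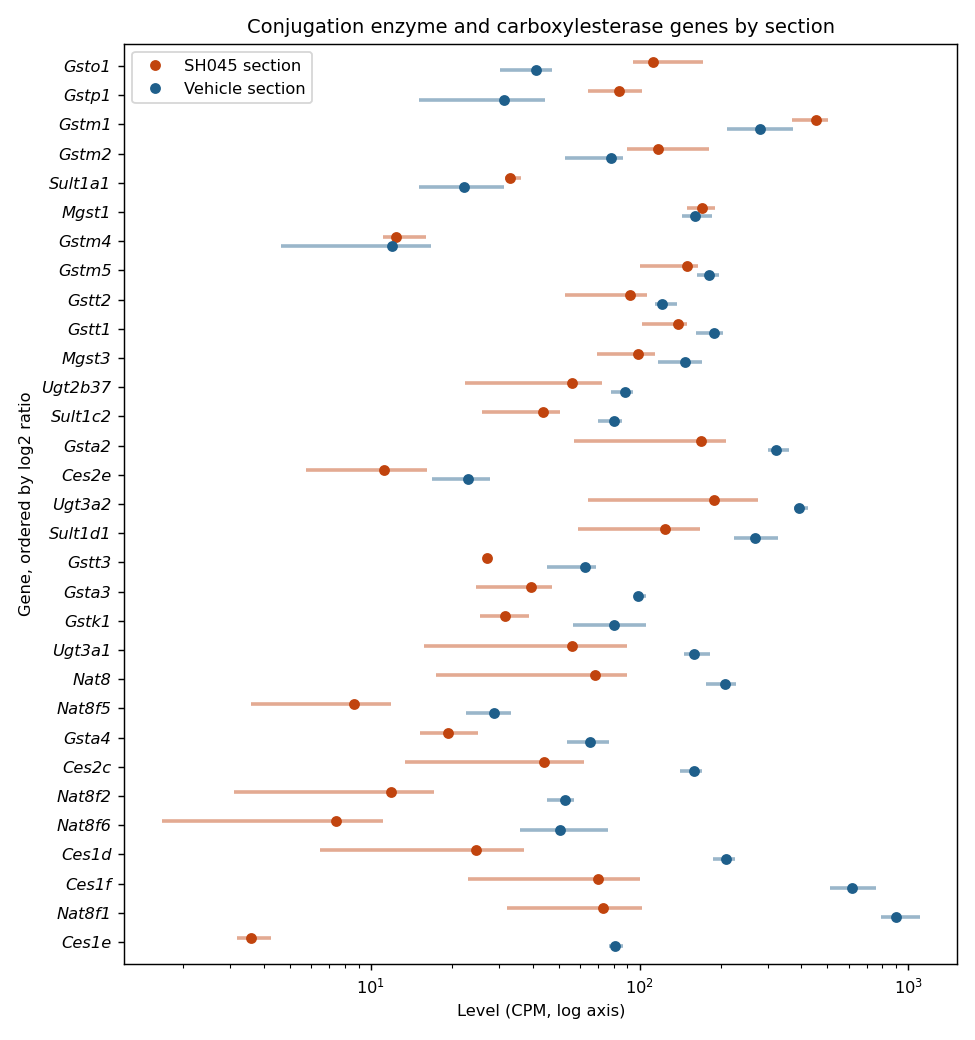
Level of the 31 measured genes in each section, in CPM on a log axis, with points for the section and lines for the range over its 4 position blocks, ordered by the log2 ratio. Nat8f1, Ces1f, Ces1d and Ces1e lie farthest apart, while Gsto1 and Gstp1 at the top lie higher in the SH045 section.

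The families did not move alike. The Ces1 sum was 98.1 CPM with SH045 and 916 CPM with Vehicle, 9.33-fold apart (8.86 to 9.84). The Nat8 sum was 176 and 1254 CPM, 7.14-fold apart (6.85 to 7.44). At the other end, the sum of all 24 glutathione transferase genes was 1740.0 CPM with SH045 and 1882 CPM with Vehicle, only 1.08-fold apart (1.06 to 1.11), with blocks of 1456 to 1852 and 1725 to 2007 CPM that overlapped. Relative to the median of all genes this sum lay lower too, at a log2 ratio of -0.75. By that measure 10 of the 15 measured transferases were lower and 2 higher, against 25.7% and 25.4% of all genes. The lower level thus lay in the esterase, acetyltransferase, glycosyltransferase and sulfotransferase families, while among the glutathione transferases higher and lower genes offset each other on the CPM scale. At 1.5-fold, 8 of the 14 families were lower with SH045 and 2 higher, the latter being Gstp and Gsto.

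**Figure D2:**
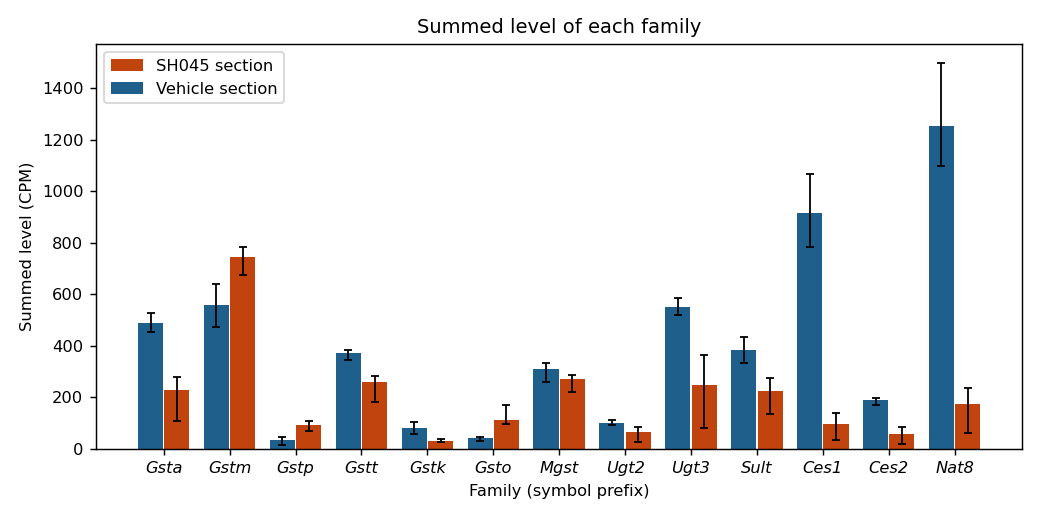
Summed level of 13 families in CPM, with bars for each section and whiskers for the range over its 4 position blocks; Ugt1, at 1.43 and 2.54 CPM, is not drawn. The Ces1 and Nat8 bars differ most between sections, and Gstm, Gstp and Gsto are the families whose SH045 bar is the taller.

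The alpha class of glutathione transferases, abundant in proximal tubule, was lower in the SH045 section for each of its 3 measured genes. Gsta2, the leading gene of the class with 73.3% of its UMIs with SH045 and 65.8% with Vehicle, stood at 169 CPM (163 to 174) with SH045 and 320.5 CPM (304 to 338) with Vehicle. Gsta3 stood at 39.6 and 98.9 CPM, a 2.50-fold difference (2.22 to 2.81). Gsta4, which conjugates the lipid peroxidation product 4-hydroxynonenal, stood at 19.3 and 65.6 CPM, 3.39-fold apart (2.91 to 3.95). The block ranges of none of the 3 overlapped between sections, which held with SH045 lower for 13.5% of all measured genes and in either direction for 69.9%. Their family sum was 230.1 CPM with SH045 and 487 CPM with Vehicle.

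Of the 4 measured mu genes, 1 was higher on the CPM scale, against 52.2% of all genes, and 3 lay within 1.5-fold. Relative to all genes 0 were higher and 2 lower, against 25.4% and 25.7%. Gstm1, the leading mu gene, stood at 455 CPM (446 to 463) with SH045 and 282 CPM (266 to 298) with Vehicle, 1.61-fold higher (1.52 to 1.71). Its blocks ran from 370.1 to 504 CPM and from 211 to 373 CPM, so the lowest SH045 block lay just under the highest Vehicle block. Relative to the median of all genes its log2 ratio was 0.06, so it kept pace with the typical gene of the section and no more. Gstm2 stood at 117 and 78.1 CPM, 1.49-fold apart, which does not reach the 1.5-fold line, and relative to all genes its log2 ratio was -0.06. Gstm5 stood at 151 and 181 CPM, with overlapping blocks, and Gstm4 at 12.4 and 12.0 CPM. The make-up of the class shifted with this: Gstm1 gave 60.9% (60.2 to 61.7) of the mu UMIs with SH045 and 50.5% (48.4 to 52.5) with Vehicle, and Gstm5 gave 20.2% and 32.4%.

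The 2 genes that were higher in the SH045 section by both measures were a pi and an omega transferase. Gsto1, which reduces dehydroascorbate and removes glutathione from proteins, stood at 112 CPM (108 to 117) with SH045 and 41.1 CPM (35.3 to 47.6) with Vehicle, 2.72-fold higher (2.34 to 3.19). Gstp1 stood at 83.6 CPM (79.8 to 87.4) and 31.2 CPM (26.2 to 36.9), 2.68-fold higher (2.25 to 3.21). Every SH045 block lay above every Vehicle block for both genes, as for 56.3% of all genes: 94.2 to 171 against 30.2 to 47.1 CPM for Gsto1, and 64.2 to 102 against 15.1 to 44.4 CPM for Gstp1. Relative to all genes their log2 ratios were 0.79 and 0.76. Gstp2 and Gstp3, the neighbours of Gstp1 on chromosome 19, had 67 and 99 UMIs with SH045 and 4 and 5 with Vehicle. Gsto1 and Gstp1 gave 99.2% and 91.9% of the UMIs of their families in the SH045 section.

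The theta, kappa and microsomal transferases differed among themselves. Gstt1 stood at 139 and 189 CPM with SH045 and with Vehicle and Gstt2 at 92.1 and 121 CPM, both under 1.5-fold apart. Gstt3, their neighbour on chromosome 10, stood at 27.1 and 62.4 CPM, 2.30-fold apart (1.99 to 2.66). Gstk1, a transferase of mitochondria and peroxisomes, stood at 31.7 and 80.4 CPM, 2.54-fold apart (2.23 to 2.89). Mgst1, a membrane-bound transferase, was among the genes nearest to equal, at 171 CPM (166 to 177) and 160.4 CPM (149 to 173), and its blocks overlapped. Mgst3 stood at 98.9 and 148 CPM, 1.49-fold apart.

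Among the UDP-glycosyltransferases, the UGT3 genes supplied most of the UMIs. UGT3A1 is known to use UDP-N-acetylglucosamine in place of UDP-glucuronic acid. Ugt3a2 stood at 190 CPM (184 to 196) with SH045 and 391 CPM (372 to 410) with Vehicle, 2.06-fold apart (1.94 to 2.18). Ugt3a1 stood at 56.0 CPM (53.0 to 59.2) and 159 CPM (147 to 171), 2.84-fold apart (2.58 to 3.12). Both genes varied widely within the SH045 section, with blocks from 64.2 to 276 CPM for Ugt3a2 and from 15.7 to 90.1 CPM for Ugt3a1, and little within the Vehicle section, with blocks from 374 to 422 and from 146 to 183 CPM. Ugt2b37, a glucuronosyltransferase, stood at 56.1 and 88.0 CPM, 1.57-fold apart (1.40 to 1.76), and gave 85.0% and 87.0% of the Ugt2 UMIs. The Ugt1 genes, which include the bilirubin-conjugating Ugt1a1, summed to 32 UMIs with SH045 and 11 with Vehicle, that is 1.43 CPM (0.98 to 2.02) and 2.54 CPM (1.27 to 4.55), and no difference was detectable at this depth.

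The sulfotransferases were led by Sult1d1, an enzyme that sulfates catechols such as dopamine. It stood at 125 CPM (120.1 to 129) with SH045 and 269 CPM (254 to 285) with Vehicle, 2.16-fold apart (2.01 to 2.31). Sult1c2 stood at 43.8 and 80.2 CPM, 1.83-fold apart (1.61 to 2.07). The phenol sulfotransferase Sult1a1 lay the other way on the CPM scale, at 33.0 and 22.2 CPM, 1.49-fold higher (1.20 to 1.86), and relative to all genes its log2 ratio was -0.08. Sult1a1 thus gave 14.8% (13.8 to 15.8) of the sulfotransferase UMIs with SH045 and 5.76% (4.69 to 6.99) with Vehicle, while Sult1d1 gave 55.9% and 69.9%. The other 18 genes of this family were under 10 CPM in both sections.

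The family 1 carboxylesterases lay farthest below their Vehicle level. Ces1f stood at 69.8 CPM (66.3 to 73.3) with SH045 and 617 CPM (594 to 641) with Vehicle, 8.84-fold apart (8.30 to 9.42). Ces1d, also known as a triacylglycerol hydrolase, stood at 24.5 and 210 CPM, 8.55-fold apart (7.68 to 9.52). Ces1e (egasyn, which holds beta-glucuronidase in the endoplasmic reticulum) stood at 3.57 CPM (2.83 to 4.45) and 80.9 CPM (72.6 to 89.8), 22.6-fold apart (17.7 to 29.2), the largest difference among the 31 genes. No block of the SH045 section reached any block of the Vehicle section, which again held for 13.5% of all genes: the highest SH045 blocks were 100.3 CPM for Ces1f, 37.1 for Ces1d and 4.25 for Ces1e, and the lowest Vehicle blocks 510, 188 and 77.1 CPM. The family 2 genes differed less. Ces2c stood at 44.2 and 159 CPM, 3.60-fold apart (3.26 to 3.97), and Ces2e at 11.2 and 22.9 CPM, 2.04-fold apart (1.60 to 2.58).

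The NAT8 genes showed the widest gap between measured genes of 1 cluster. Nat8f1, a NAT8-related acetyltransferase, stood at 72.9 CPM (69.4 to 76.5) with SH045 and 902 CPM (874 to 931) with Vehicle, 12.4-fold apart (11.7 to 13.1). Nat8, the cysteine conjugate acetyltransferase itself, stood at 67.9 CPM (64.6 to 71.4) and 207 CPM (194 to 221), 3.05-fold apart (2.81 to 3.32). The intervals of these folds do not overlap, so the difference in size between Nat8f1 and Nat8 exceeds counting error in these 2 libraries. Nat8f1 gave 41.5% (39.9 to 43.0) of the family's UMIs with SH045 and 71.9% (70.7 to 73.1) with Vehicle, and Nat8 gave 38.7% and 16.5%. Nat8f6 stood at 7.41 and 50.4 CPM, Nat8f2 at 11.9 and 52.9 CPM, and Nat8f5 at 8.67 and 28.7 CPM, and the blocks of all 5 measured genes were apart with SH045 lower, against 13.5% of all genes.

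The 59 genes under 10 CPM in both sections held little RNA, 66.8 CPM in sum with SH045 and 68.9 CPM with Vehicle. Of these, 23 had no UMI in either section and 11 a UMI in 1 section only. For a gene with no UMI the floor was taken as 0.134 CPM with SH045 and 0.693 CPM with Vehicle, the level that 3 counts would give.

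Of 13 measured genes of glutathione supply and mercapturate formation, 8 were lower with SH045 and 1 higher, against 11.8% and 52.2% of all genes, with a median log2 ratio of -0.64. Relative to all genes 10 were lower and 0 higher, against 25.7% and 25.4%. Acy3, which can deacetylate mercapturates, stood at 378 CPM with SH045 and 1668 CPM with Vehicle, and Ggt1, the gamma-glutamyltransferase of the brush border, at 297 and 1076 CPM. Gclc, the catalytic subunit of the enzyme that starts glutathione synthesis, was the 1 higher gene on the CPM scale, at 131 and 79.5 CPM.

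Of 10 measured genes that supply the activated sugar and sulfate, 4 were lower and 1 higher, against 11.8% and 52.2% of all genes. Relative to all genes 6 were lower and 0 higher, against 25.7% and 25.4%. Ugdh, which makes UDP-glucuronic acid, stood at 91.9 CPM with SH045 and 63.1 CPM with Vehicle, under the 1.5-fold line. Papss2, which makes the sulfate donor PAPS, stood at 63.8 and 197 CPM, and the sulfate transporter Slc26a1 at 28.9 and 113 CPM.

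Other conjugating enzymes were mostly lower in the SH045 section, with 8 of 12 measured genes lower and 1 higher, against 11.8% and 52.2% of all genes. Their median log2 ratio was -1.49. Relative to all genes 11 were lower and 1 higher, against 25.7% and 25.4%. Glyat, which conjugates acyl groups to glycine, stood at 186 and 649 CPM, and Inmt, an N-methyltransferase, at 36.2 and 585 CPM. The 1 higher gene was the nicotinamide N-methyltransferase Nnmt, at 21.8 and 2.08 CPM. Of 5 measured other hydrolases, 2 were lower and 3 higher, against 11.8% and 52.2% of all genes, so the share of higher genes was near that of all genes. Relative to all genes 2 were lower and 0 higher, against 25.7% and 25.4%. The soluble epoxide hydrolase Ephx2 stood at 104 and 320.5 CPM and the microsomal epoxide hydrolase Ephx1 at 67.3 and 29.3 CPM.

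Of 6 measured conjugate efflux pumps, 4 were higher with SH045 and 2 lower, against 52.2% and 11.8% of all genes. Relative to all genes 3 were higher and 2 lower, against 25.4% and 25.7%. The 2 lower ones were Abcc2 at 61.6 and 109.8 CPM and Abcg2 at 194 and 398 CPM. Abcc1, at 24.1 and 6.70 CPM, and Abcc3, at 14.9 and 0.92 CPM, were higher, as were Abcc4 at 46.8 and 16.4 CPM and Abcc5 at 38.5 and 18.5 CPM. Among 9 measured regulators, 3 were higher and 3 lower, against 52.2% and 11.8% of all genes. Relative to all genes 3 were higher and 6 lower, against 25.4% and 25.7%. Nfe2l2, which encodes NRF2, stood at 157 CPM with SH045 and 60.1 CPM with Vehicle, while Hnf4a, a master regulator of proximal tubule identity, stood at 116 and 264 CPM. Of the 10 measured NRF2 target genes outside the families, 2 were higher and 3 lower, against 52.2% and 11.8% of all genes. Relative to all genes 0 were higher and 6 lower, against 25.4% and 25.7%. Among these targets Nqo1 stood at 24.1 and 46.2 CPM.

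Within each section, spots with at least 2500 UMIs (788 with SH045 and 561 with Vehicle) were ranked by marker lists that hold none of the 90 genes. Each list was scored after every spot had been thinned to 2500 UMIs, and the top 25% of spots were set against the rest. Spots are not replicates, so these are descriptions of 1 section each. A gene that passed the level filter only in the spots where it is high had to differ, so main counts are also given for genes with at least 10 CPM over both sets of spots together, a filter chosen after the data were seen.

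In the SH045 section, most of these enzymes followed the convoluted proximal tubule. In the 197 spots with the most convoluted proximal marker RNA, the 90 genes summed to 3580.0 CPM, and in the other 591 spots to 2168 CPM. Of 31 genes measured in these spots, 18 were at least 1.5-fold higher there and 2 lower, where 5.58% of all genes were higher and 11.9% lower. With the filter over both sets together, 15 of 28 were higher and 2 lower. Ces1d stood at 54.4 against 10.9 CPM, 4.99-fold higher (4.15 to 6.02), Nat8f1 at 144 against 40.6 CPM, 3.54-fold higher (3.20 to 3.92), and Ugt3a1 at 107 against 32.7 CPM, 3.28-fold higher (2.93 to 3.68). The 18 comprised Gsta2, Gsta3, Gstm5, Ugt2b37, Ugt3a1, Ugt3a2, Sult1c2, Sult1d1, Ces1d, Ces1f, Ces2c, Ces2e, the 5 measured Nat8 genes, and Ugt2b34. Of these, Nat8f6, Nat8f5 and Ugt2b34 passed the level filter only in these spots, where they are high. They stood at 16.0 against 3.51 CPM, 14.4 against 6.04 CPM and 11.1 against 2.47 CPM. Ces1e, at 7.43 against 1.82 CPM, fell under the filter in both sets of spots, and Gsta4, at 17.7 against 20.1 CPM, did not follow the other alpha genes. Gstm2, at 75.7 against 135 CPM, and Gsto1, at 79.4 against 127 CPM, were the 2 lower genes. The convoluted proximal score also rose with the UMIs of a spot in this section (Spearman rho 0.41 over 788 spots), and depth was not separated from it beyond the thinning.

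**Figure D3:**
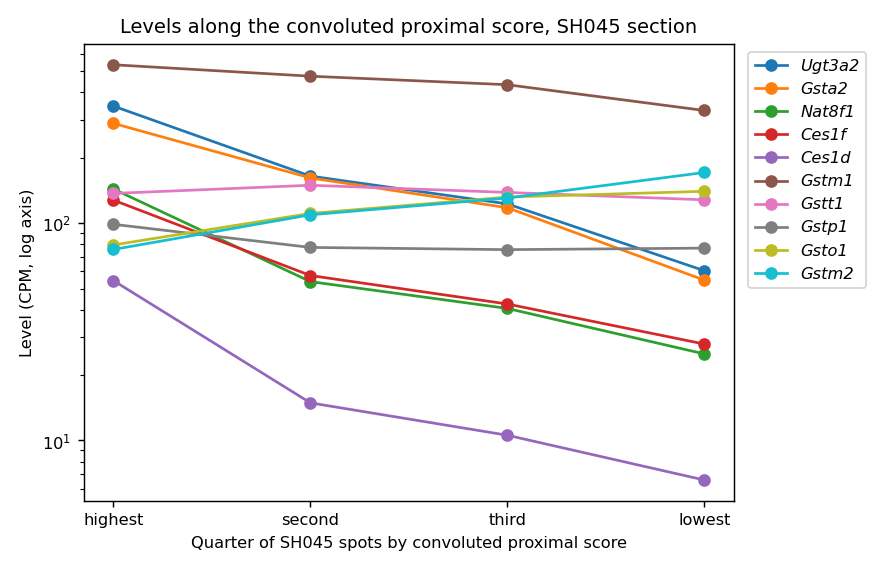
Level of 10 genes in the SH045 section, in CPM on a log axis, over 4 equal groups of 197 spots from the highest to the lowest convoluted proximal score. Ugt3a2 runs from 346 down to 60.5 CPM and Gsta2 from 288 to 54.7 CPM, Gstt1 stays between 128 and 149.6 CPM, and Gstm2 climbs from 75.7 to 171 CPM.

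The families differed in how steep this gradient was. From the highest to the lowest 25% of spots by convoluted proximal score in the SH045 section, the sum of Ugt3 ran from 453 to 77.7 CPM, 5.84-fold, that of Nat8 from 331 to 62.8 CPM, 5.27-fold, and that of Ces1 from 190.0 to 36.1 CPM, 5.27-fold. The Gsta sum ran from 373 to 93.6 CPM, 3.99-fold. The Gstm, Gstp, Gstt, Gstk and Mgst sums changed by only 1.28-fold to 1.39-fold, and the Gsto sum ran the other way, from 79.7 to 142 CPM. Thinned to 2500 UMIs, 47.7% of the highest 25% of spots held a Ugt3a2 UMI and 14.7% of the lowest; for Gsto1 the shares were 20.3% and 29.4%.

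Spots rich in straight proximal markers shared part of this pattern. There, 12 of 30 genes were higher and 1 lower, against 4.11% and 5.54% of all genes (11 and 1 of 28 with the filter over both sets). Ces1f stood at 138 against 44.3 CPM, 3.11-fold higher (2.81 to 3.44), and Gstm1 at 689 against 366 CPM, 1.88-fold higher (1.81 to 1.96). With spots in both top groups left out, 119 convoluted spots were set against 119 straight ones. Of 30 genes, 10 were higher in the convoluted spots and 2 in the straight ones, against 2.88% and 5.22% of all genes (9 and 2 of 29 with the filter over both sets). Ugt2b37 stood at 118 CPM in the convoluted and 29.8 CPM in the straight spots, 3.96-fold apart (3.19 to 4.96), and Sult1c2 at 80.0 and 31.6 CPM, 2.53-fold apart (2.03 to 3.18). Gstm1, at 405 and 647 CPM, and Gstm2, at 76.7 and 122 CPM, were the 2 straight genes, and with spots of at least 1000 UMIs neither reached 1.5-fold, with 0 straight genes. Ces1f, at 86.1 and 93.2 CPM, and Ugt3a2, at 258 and 249 CPM, did not separate the portions, so genes of 1 family could differ here: Ces1d stood at 45.9 and 20.2 CPM.

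Spots rich in injury or stromal markers held less of these enzymes in the SH045 section. In the top 25% by the injury list, 8 of 28 genes were lower and 0 higher, against 2.41% and 0.833% of all genes. Ces1f stood at 29.8 against 83.1 CPM and Ugt3a2 at 92.7 against 222 CPM. Gsto1 stood at 148 CPM in the 25% of spots with the highest injury score and 91.8 CPM in the lowest 25%, and Gstp1 at 79.2 and 99.5 CPM. Injury markers sorted these spots weakly, at 37056 against 23491 CPM. Their score ran against the convoluted proximal score (Spearman rho -0.27). Lower genes were not particular to this list. With the filter over both sets, 13 of 28 were lower by the endothelium list, against 3.18% of all genes. By the podocyte and macrophage lists 7 and 6 were lower, against 0.725% and 1.72%. By the fibroblast list 15 of 29 genes were lower and 2 higher, against 5.42% and 8.25%, with Nat8 at 22.9 against 79.1 CPM. The higher genes were Gsto1, at 155 against 102 CPM, and Sult5a1, at 10.8 against 6.36 CPM, which passed the filter only in these spots, so that 1 of 28 was higher with the filter over both sets. Fibroblast scores ran against convoluted proximal scores over the spots, with a Spearman rho of -0.42. In spots rich in thick ascending limb markers 1 of 29 genes was higher and 4 lower, against 2.65% and 3.02%. The higher one was Gstm2, at 170 against 102 CPM, 1.66-fold higher (1.53 to 1.81), and the lower ones included Ugt2b37, at 23.6 against 65.1 CPM. In collecting duct spots Gstm2 was again the 1 higher gene of 28, at 162 against 103 CPM, and 4 were lower, against 2.43% and 1.74%.

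**Figure D4:**
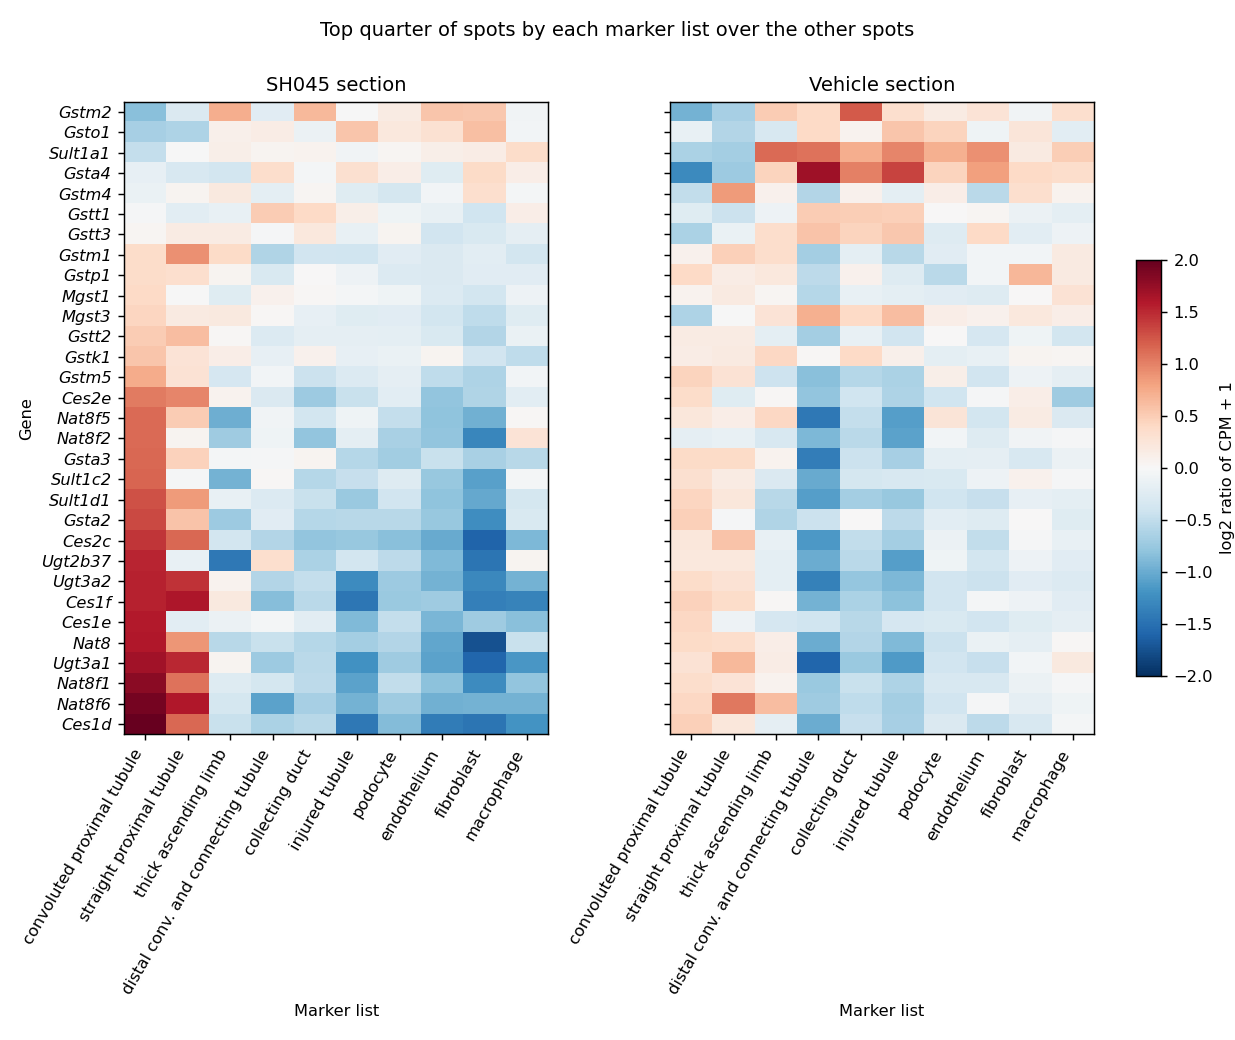
Log2 ratio of CPM + 1 in the top 25% of spots by each marker list over the other spots, for the 31 genes (rows) and 10 lists (columns) in each section, red for higher and blue for lower. In the SH045 section the 2 proximal columns are mostly red and the fibroblast column mostly blue, while with Vehicle the deepest colours are in the distal convoluted and connecting tubule column, with Gsta4 the reddest.

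In the section labelled Vehicle the enzymes were spread more evenly. The top 140 spots by convoluted proximal markers held 6011 CPM of the 90 genes and the other 421 spots 5059 CPM. Of 31 genes, 0 were 1.5-fold higher there and 5 lower (Gsta4, Gstm2, Gstt3, Mgst3 and Sult1a1), against 4.56% and 12.6% of all genes. The markers themselves separated these spots weakly, at 13325 against 9028 CPM, compared with 3178 against 756 CPM in the SH045 section. The contrast that stood out was with distal spots: in the top 25% by distal convoluted and connecting tubule markers (72340 against 10043 CPM of those markers), 19 of 32 genes were lower and 4 higher, against 12.6% and 21.1%. Ugt3a1 stood at 60.9 against 186 CPM and Gsta3 at 43.4 against 115 CPM. The higher genes were Gsta4, Mgst3, Sult1a1 and Sult2a3, the last of which passed the filter only in these spots, so that 3 of 31 were higher and 19 lower with the filter over both sets. Spots with the highest injury score gave a like picture, with 15 of 32 genes lower and 4 (Gsta4, Mgst3, Sult1a1 and Sult2a3) higher, against 10.2% and 17.3% of all genes (15 and 3 of 31 with the filter over both sets). Nat8 stood at 124 against 229 CPM there. Of the 3573 CPM that the injury list summed to in those spots, Spp1 gave 1734 CPM and Clu 1585 CPM. Havcr1 stood at 2.12 against 1.57 CPM and Lcn2 at 4.24 against 1.57 CPM, so a high score in this section need not mean injury.

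In straight proximal spots of that section, 3 of 32 genes were higher and 5 lower, against 4.02% and 9.10% of all genes (3 and 4 of 31 with the filter over both sets). The higher ones were Nat8f6, at 84.3 against 40.0 CPM, Gstm4, at 18.1 against 9.59 CPM, and Ugt3a1, at 218 against 139 CPM. Nat8f6 was higher in thick ascending limb spots of this section too.

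Spots chosen for the convoluted and straight portions were hardly told apart by these genes in the section labelled Vehicle. The convoluted markers themselves sorted its spots weakly, at 13325 CPM in the top spots against 9028 CPM in the others (3178 against 756 CPM with SH045). The straight markers stood at 1035 against 453 CPM (1425 against 559 CPM with SH045). These sums include spots in both top groups. Whether the small difference lies in the enzymes or in the choice of spots was not tested. Of 33 genes, 1 (Ces2e) was higher in 94 convoluted spots and 5 (Gstm4, Nat8f6, Gsta4, Mgst3 and Ces1g) in 94 straight spots, against 10.5% and 12.9% of all genes. Ces1g, with 9 UMIs in the straight and 3 in the convoluted spots, passed the filter only in the former, and the counts were 1 and 4 of 31 with the filter over both sets. For Nat8f6 and Gsta4 the direction turned with another choice of spots. Ugt2b37, which separated the portions in the SH045 section, stood at 102 and 101 CPM.

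A few genes were higher in spots of the distal nephron in the section labelled Vehicle, though not only there. Gsta4 was also higher in endothelium spots, and Sult1a1 in podocyte and endothelium spots. Gsta4 stood at 148 CPM in the distal convoluted and connecting tubule spots against 44.9 CPM elsewhere, 3.29-fold higher (2.57 to 4.20), and Mgst3 at 213 against 130.4 CPM, 1.64-fold higher (1.37 to 1.95). In collecting duct spots 4 of 32 genes were higher and 5 lower, against 16.0% and 6.67% (3 and 5 of 31 with the filter over both sets), and Gstm2 stood at 139 against 59.0 CPM, 2.35-fold higher (1.88 to 2.94). In thick ascending limb spots 2 of 32 were higher and 2 lower, against 12.4% and 3.90% (2 and 1 of 31 with the filter over both sets). The higher genes were Nat8f6 and Sult1a1, the latter at 36.5 against 16.2 CPM, 2.26-fold higher (1.44 to 3.51). Sult2a3, with 38 UMIs in the whole section, stood at 27.0 against 3.97 CPM in the distal convoluted and connecting tubule spots. Gsta4 thus lay apart from Gsta2 of its own class, which was at 0.74-fold in the distal convoluted and connecting tubule spots. In those spots Gstm1 was at 0.62-fold, and Gstm2 was not among the higher genes. Gsta4, at 19.3 CPM over the SH045 section, was within 1.5-fold in each of the 10 marker contrasts there.

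**Figure D5:**
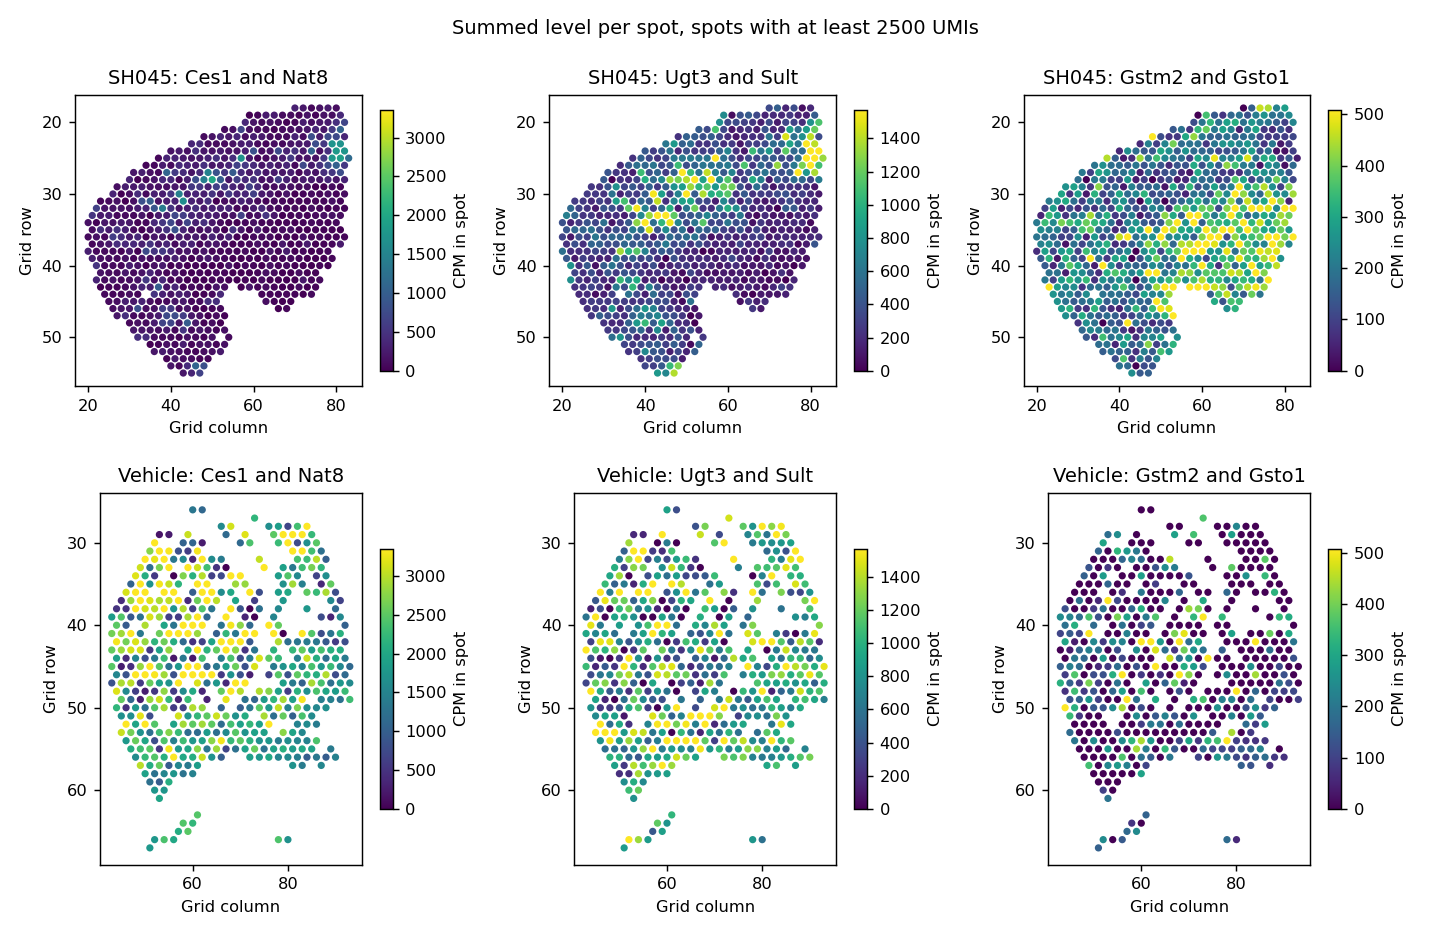
Summed CPM of Ces1 and Nat8 (left), Ugt3 and Sult (middle) and Gstm2 and Gsto1 (right) in each spot with at least 2500 UMIs, by grid position, with 1 colour scale per column and the brightest colour for all values at or above its top. In the SH045 section Ugt3 and Sult are bright in a few patches and Gstm2 and Gsto1 in another area, while Ces1 and Nat8 are bright over most of the Vehicle section.

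When the convoluted-rich spots of the sections were set against each other, the lower genes named here were closer together than over whole sections. Some were within 1.5-fold on the CPM scale and some not. In the 197 SH045 and 140 Vehicle spots of the top 25%, 16 of 32 genes were lower with SH045 and 6 higher, against 11.1% and 47.2% of all genes. Ugt2b37, at 103 and 99.2 CPM, Ugt3a2, at 346 and 472 CPM, and Gsta2, at 288 and 400 CPM, were then less than 1.5-fold apart on the CPM scale. The median log2 ratio of all genes in these spots was 0.52. Their own log2 ratios lay below it, at 0.05, -0.45 and -0.47. Counts relative to that median were not made. Ces1e was still 13.2-fold lower, Nat8f1 7.53-fold, Ces1f 6.11-fold and Ces1d 4.91-fold. Gstp1 was 2.52-fold and Gsto1 2.07-fold higher, and the other higher genes were Gstm1, Gstm2, Sult1a1 and Ugt2b34. The last had 6 UMIs in the Vehicle spots and passed the filter only in the SH045 spots. Against the median of 0.52, the log2 ratios were 1.31 for Gstp1, 1.03 for Gsto1, 0.83 for Gstm1, 0.76 for Sult1a1 and 0.70 for Gstm2. With the filter over both sets, 5 of 31 were higher and 16 lower. The chosen spots were not alike, since convoluted proximal markers summed to 3178 CPM in the SH045 spots and 13325 CPM in the Vehicle spots, and Havcr1 stood at 1069 and 1.97 CPM.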

How the data were processed

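The UMI counts per gene and spot that the authors deposited are raw, 1 matrix a section, made with Space Ranger 2.0.1 per the file headers, on build mm10 per the submitters' processing notes. Alignment and counting settings: not given in the sources used here. A table of spot positions came with each matrix. All matrix spots were used, since the tissue flags of the section labelled Vehicle do not match its matrix.

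All UMIs of a section were added up and scaled to CPM (a total of 1000000 over all genes) with Python 3.11.15, scipy 1.17.1 and pandas 2.3.3. Ratios are differences of log2(CPM + 1), and the pseudocount of 1 understates the ratio of low genes. CPM values have exact Poisson 95% intervals, folds exact conditional binomial ones and shares exact Clopper-Pearson ones, for counting error only. A gene was measured at 10 CPM or more in either set compared and counted as higher or lower at 1.5-fold. With 1 section per group no test was made. Spots were scored by marker lists after thinning to 2500 UMIs, which left out 2 and 115 spots, and doublets were not called, since spots are no cells. The scaling, the spots used, the pseudocount, the filter, the fold, the top share and the thinning depth were varied.

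The genes, gene lists and markers were chosen with earlier results of these data known. Measured genes may be named, the leading ones with full values, and those under 10 CPM by counts and ranges; Ugt2b34, Sult5a1, Sult2a3, Ces1g, Gstp2, Gstp3 and the genes of the closing paragraph lie outside that rule and were chosen after their values were seen. Protein sequences were not used here. One regulator and 1 letter pattern are not reported here. The calculations were checked on simulated counts.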

Additional observations from a re-analysis of the deposited data

How the results depend on the processing

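No paired analysis was possible because each group has 1 section. The count of genes lower in the SH045 section (20) was 18 to 26 over all alternatives except the 2-fold line, which gave 16, and was 25 with TMM factors (edgeR) and with median-of-ratios size factors. The count of higher genes (3) became 9 with no level filter. Relative to all genes, the higher count (2) became 1 with only Vehicle spots under 10% mitochondrially encoded UMIs, 8 with no filter and 0 at 2-fold, and the lower count (25) became 40 with no filter. The log2 ratio of the summed level (-1.02) moved beyond its counting interval to -1.60 with TMM, -1.67 with median-of-ratios, -1.11 without mitochondrially encoded genes, -1.08 with the low-mitochondrial Vehicle spots and -1.07 as a mean over spots. With only the 570 flagged Vehicle spots it was -1.03. Between convoluted and straight spots, the 2 genes of the SH045 section that were higher in the straight spots became 0 at 1000 UMIs. In the Vehicle section, the 1 gene higher in the convoluted spots became 5 with the top 10% of spots and 0 at 1000 UMIs. The 5 genes higher in the straight spots became 2 at 1000 UMIs. There, Nat8f6 reversed to log2 ratios of 0.21 (top 10%) and 0.27 (1000 UMIs), and Gsta4 to 0.77 (top 10%). The cause was not tested. A filter on the level over both sets together, chosen after the data were seen, gave 3 higher and 20 lower genes between sections. Within sections, the genes higher by the fibroblast list with SH045 and those lower by the thick ascending limb list with Vehicle each went from 2 to 1, and the other counts given stayed within 1.5 times. Of 217 values of single genes between sections, 132 stayed within their counting interval, 85 moved and 0 reversed. The Vehicle section, with fewer UMIs, limits the precision: 3 counts are 0.693 CPM there and 0.134 CPM in the SH045 section.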

Other observations

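Among the 59 genes under 10 CPM, 36 had a UMI, and counting intervals of the fold lay on 1 side of equality for 11 of them, 6 higher in the SH045 section and 5 higher in the Vehicle section. The share of all genes under 10 CPM with such intervals was not worked out, so these counts are a description only. These 11 genes were picked after their values were seen. On the SH045 side, Sult4a1, a sulfotransferase known from brain, had 132 UMIs there and 0 in the Vehicle section. That is 8.50-fold higher when 3 counts are taken as the Vehicle floor, and the counting interval of the fold starts at 6.82. Sult2b1, which sulfates cholesterol, had 128 and 2 UMIs, or 5.72 and 0.46 CPM, a ratio of 12.4 with a counting interval from 3.36 to 103. Sult5a1 had 162 and 7 UMIs, and Gstm6 120 and 2 UMIs. Gstp2 and Gstp3 were the others on that side.

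On the Vehicle side, Sult2a3 had 38 UMIs against 6 in the SH045 section, a ratio of 32.8 (13.7 to 94.8), and Ces1g 32 against 6, a ratio of 27.6 (11.4 to 80.7). Ces2g, Nat8f3 and Ces1h were the other 3, with Ces1h resting on 3 UMIs. Ces1g and Nat8f3 lay on the same side as the better measured genes of their clusters.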
